A study of Mus musculus with 6 samples.

Results

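The 8 genes described here lie next to each other on mouse chromosome 2, between Nebl and Bmi1, around Mllt10, Skida1 and Dnajc1. They were listed by symbol, and their rows were taken from the sense-strand and the opposite-strand gene counts of every library, 8 of the 24054 gene rows. The list was drawn up with the results of the same ko against wild-type comparison in view, so that the differences between ko and wild-type given for these genes are a description and carry no test. By annotation 6 of the genes are protein-coding and 2, A930004D18Rik and Gm17762, are long non-coding RNAs.

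The libraries came from mouse embryonic stem (ES) cells, pluripotent cells of the early embryo, kept without feeder cells on gelatin in medium with serum and LIF. 3 libraries were from Morc3 knock out (ko) cells, the lines KO27-1, KO27-2 and KO27-3, each a single clone derived from the wild-type line, and they are called clone 1, 2 and 3 below. The other 3 were from the wild type line WT26 and are called p42, p43 and p56 after their labels, which do not say what the letter p stands for. Morc3 is a nuclear ATPase that acts on chromatin, and the comparison asks which transcripts differ in cells that lack this protein. The paper reports its loss in the ko clones by western blot, while Morc3 RNA was still detected in them, as given below. The 3 wild-type libraries are cultures of 1 line, so that every p-value below measures the spread between these cultures and between the clones.

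Mllt10 encodes a cofactor of the histone methyltransferase DOT1L, which marks the bodies of transcribed genes, and it is known as a fusion partner in leukemia. Bmi1 encodes a subunit of Polycomb repressive complex 1 (PRC1), which keeps developmental genes and the INK4-ARF cell-cycle inhibitors silent. Dnajc1 encodes a J protein of the endoplasmic reticulum membrane that works with the chaperone Hspa5, Commd3 a subunit of the endosomal sorting machinery, and Nebl an actin-binding protein of heart muscle. Skida1 encodes a protein with a SKI/DACH domain of little known function.

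In the direction of the chromosome (GRCm38 coordinates), Nebl occupies chr2:17342673-17734949 on the minus strand. After a gap of 290 kb it is followed by A930004D18Rik at chr2:18025187-18037741 on the minus strand. Gm17762, at chr2:18027249-18030577 on the plus strand, lies wholly within A930004D18Rik. Skida1 lies at chr2:18044087-18048449 on the minus strand, and its start is 10.7 kb from that of A930004D18Rik and 6.71 kb from that of Mllt10. Mllt10, at chr2:18055160-18212390 on the plus strand, runs into the end of Dnajc1, at chr2:18205634-18394099 on the minus strand, and their exons share 749 bases. This is 12.7% of the exon bases of Mllt10 and 6.43% of those of Dnajc1. Commd3, at chr2:18672435-18676231, and Bmi1, at chr2:18677018-18686629, both on the plus strand, follow 278 kb further and are 0.787 kb apart.

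The 250 bases before the annotated starts of the genes with the clearest differences, and of Dnajc1 as their neighbour, show how unlike these promoters are in sequence. They were taken from RefSeq (GRCm38.p6), where 7 of the 8 genes have an entry, Skida1 being the exception, and each is written 5′ to 3′ on the strand of its gene. Capitals mark matches, searched on both strands, to a CCAAT box. They also mark matches to the GC box, searched as GGGCGG on both strands, and to the E-box, searched as CACGTG, which reads alike on both strands. Matches that overlap or adjoin form 1 run of capitals. The starts are those of single transcripts and need not be the ends of the gene spans given above. The Dnajc1 window and that of the furthest Mllt10 start lie inside the span of their gene. The window of the first Mllt10 start overlaps the span of Mllt10.
A930004D18Rik (chr2:18037742-18037991, minus strand): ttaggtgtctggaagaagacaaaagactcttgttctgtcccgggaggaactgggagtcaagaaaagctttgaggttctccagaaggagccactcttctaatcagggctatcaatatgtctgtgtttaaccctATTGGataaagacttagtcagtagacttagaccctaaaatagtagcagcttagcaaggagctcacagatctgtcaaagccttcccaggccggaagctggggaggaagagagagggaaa
Gm17762 (chr2:18026999-18027248, plus strand): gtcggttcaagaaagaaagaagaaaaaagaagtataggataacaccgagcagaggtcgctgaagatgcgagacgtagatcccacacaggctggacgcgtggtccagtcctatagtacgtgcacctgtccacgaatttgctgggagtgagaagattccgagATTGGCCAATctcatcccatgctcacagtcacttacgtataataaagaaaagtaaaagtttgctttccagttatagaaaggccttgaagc
Mllt10, first start (chr2:18054987-18055236, plus strand): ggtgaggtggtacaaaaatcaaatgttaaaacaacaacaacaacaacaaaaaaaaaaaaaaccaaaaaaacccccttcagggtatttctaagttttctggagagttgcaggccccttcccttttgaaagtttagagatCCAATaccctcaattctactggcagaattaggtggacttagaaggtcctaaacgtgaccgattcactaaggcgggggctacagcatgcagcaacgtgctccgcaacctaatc
Mllt10, furthest start (chr2:18064335-18064584, plus strand): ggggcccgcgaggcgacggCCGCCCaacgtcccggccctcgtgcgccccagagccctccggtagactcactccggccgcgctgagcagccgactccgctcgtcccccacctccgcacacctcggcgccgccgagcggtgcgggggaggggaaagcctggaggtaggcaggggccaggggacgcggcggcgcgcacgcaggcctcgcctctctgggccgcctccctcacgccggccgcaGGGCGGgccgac
Dnajc1 (chr2:18392831-18393080, minus strand): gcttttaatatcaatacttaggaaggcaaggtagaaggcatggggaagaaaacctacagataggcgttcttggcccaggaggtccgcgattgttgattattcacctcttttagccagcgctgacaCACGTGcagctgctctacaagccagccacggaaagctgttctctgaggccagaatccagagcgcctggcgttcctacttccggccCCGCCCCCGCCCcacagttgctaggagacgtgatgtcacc

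A930004D18Rik held 2 CpG dinucleotides in this window, the first Mllt10 start 5, Gm17762 11 and Dnajc1 12. The furthest Mllt10 start held 36, and its GC content was 79.2%. A further Mllt10 start between the first and the furthest (chr2:18055478-18055727) held 4 CpG and none of the motifs. The median over the 32851 promoters of the same length in the table was 6 CpG, and 49.6% held 5 or fewer. CCAAT was present before A930004D18Rik, before the first Mllt10 start, in 2 adjoining matches on opposite strands before Gm17762 and before 2 of the 4 Nebl starts, and in 33.8% of all promoters. GGGCGG, present in 32.7% of all promoters, was matched 2 times before the furthest Mllt10 start, 2 times before Dnajc1, 4 times before Commd3 (45 CpG) and 6 times before Bmi1 (21 CpG). CACGTG, present in 6.02% of all promoters, was matched 1 time before each of Dnajc1, Commd3 and Bmi1. TATAAA was matched before none of the 7 genes and in 12.4% of all promoters. These matches describe letters in a window and no binding site.

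Sense-strand gene counts amounted to 10740618 to 14123131 read pairs per library, and opposite-strand counts to 136615 to 172743. Morc3 itself was measured at 77.8, 138 and 135 CPM (sense counts relative to the library's total after TMM scaling) in ko clones 1, 2 and 3, against 277, 272 and 302 CPM in p42, p43 and p56 (log2 fold change -1.28, SE 0.16). By edgeR's quasi-likelihood test with Benjamini-Hochberg adjustment, 156 of 12222 genes tested were called at an adjusted p under 0.01, 105 higher and 51 lower in ko. Wild-type p56 stood apart from the other libraries, in that 385 genes were called without it, and values without p56 are given below where they move a result. All 8 ES cell markers tested were well expressed, their summed level being 6029 to 6143 CPM in ko and 5520 to 5640 CPM in wild-type, and 0 of them were called, with 2 at an unadjusted p under 0.05. Markers of endoderm and trophoblast summed to 2.63 to 2.96 CPM in ko and 3.50 to 3.86 CPM in wild-type, and those of mesoderm and nerve cells to 101 to 107 and 102 to 111 CPM, nearly all of it Tubb3. The 6 fibroblast markers summed to 5.73 to 6.08 CPM in ko and 9.20 to 10.5 CPM in wild-type, nearly all of it Thy1. Thy1 was called lower in ko by edgeR (log2 fold change -0.86, adjusted p = 0.0064), while Postn was at 0 in all 6 libraries. The remaining fibroblast markers were near the floor and went both ways. In ko and wild-type, Col1a1 averaged 0.484 and 0.311 CPM and Col3a1 0.0303 and 0.0241 CPM. Col1a2 averaged 0.149 and 0.170 CPM and Pdgfra 0.389 and 0.677 CPM. The part of these marker differences in the values below was not tested, and in such bulk samples fewer cells of a type and less RNA per cell cannot be told apart.

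Transcripts of 4 neighbours, A930004D18Rik, Gm17762, Skida1 and Mllt10, were higher in every ko clone than in every wild-type culture, and the other 4 genes of the locus, Dnajc1 beside Mllt10 among them, were not. Mllt10, the abundant transcript, differed by a log2 fold change of 0.72, and the other 3, which were scarce, by ratios of their summed counts of 4.24 to 6.56. Commd3 was lower in every ko clone than in every wild-type culture, by a small margin, and the groups overlapped for Nebl, Dnajc1 and Bmi1. Of the 8 genes 6 passed the filter on low counts, and Skida1 passed it only through the ko libraries. A930004D18Rik, Skida1 and Mllt10 were among the called genes (Skida1 was not when any single library other than p56 was left out), where 1.28% of all tested genes were called, 0.859% higher and 0.417% lower in ko. For comparison, ko lay wholly above wild-type for 9.67% and wholly below it for 10.2% of all tested genes. Since the list was drawn up from this comparison, nothing is read from these counts.

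**Figure D1:**
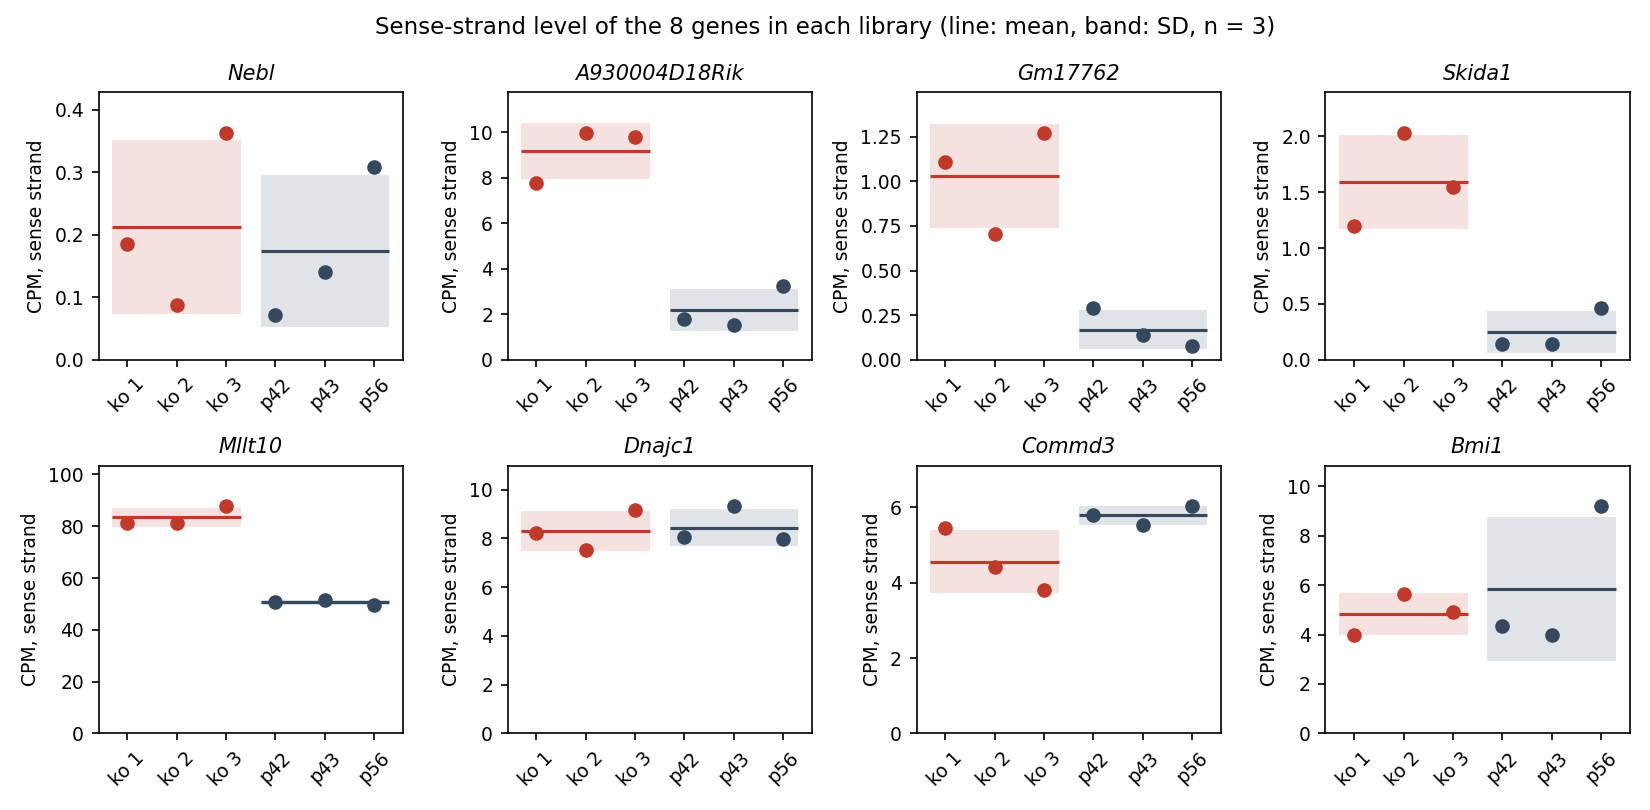
Sense-strand level of each of the 8 genes in CPM (vertical axes, each from 0) in the 3 ko clones (red) and the 3 wild-type cultures (dark blue), with the mean as a line and 1 SD to either side as a band (n = 3). The ko points lie wholly above the wild-type points for A930004D18Rik, Gm17762, Skida1 and Mllt10, and wholly below them for Commd3.

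Mllt10 was the most abundant transcript of the locus and carried 72.8 to 74.4% of the sense counts of the 8 genes in ko and 64.5 to 71.2% in wild-type. It was measured at 81.2, 81.4 and 87.7 CPM in ko clones 1, 2 and 3 and at 50.8, 51.5 and 49.4 CPM in p42, p43 and p56. The groups were far apart compared with their spread, the lowest ko clone standing well above the highest wild-type culture. The means were 83.4 ± 3.67 CPM (SD, n = 3) in ko and 50.5 ± 1.04 CPM in wild-type, a log2 fold change of 0.72 (SE 0.07). This value rested on 640 to 966 read pairs per library and stayed between 0.69 and 0.76 under all 10 other settings run.

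A930004D18Rik, the non-coding RNA transcribed from the minus strand beyond the 3′ end of Skida1, was measured at 7.76, 9.98 and 9.80 CPM in ko clones 1, 2 and 3. In p42, p43 and p56 it was at 1.81, 1.54 and 3.24 CPM. All ko clones were higher than all wild-type cultures, and p56 was the highest of the wild-type cultures. The means were 9.18 ± 1.23 CPM in ko and 2.20 ± 0.915 CPM in wild-type (SD, n = 3), a log2 fold change of 2.07 (SE 0.24), or 2.45 without p56.

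Skida1 was hardly detected in wild-type, with 2, 2 and 6 read pairs in p42, p43 and p56, and had 13, 23 and 17 in ko clones 1, 2 and 3. In CPM this was 0.145, 0.140 and 0.463 in wild-type and 1.20, 2.03 and 1.54 in ko. Each ko clone again stood above each wild-type culture, and p56 was again the highest wild-type culture. Summed over the libraries and scaled to their depth, the ratio of 53 to 10 read pairs was 6.56 (exact 95% interval 3.30 to 14.5, counting error only). The log2 fold change was 2.66 (SE 0.47), and 3.40 without p56.

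Gm17762, the non-coding RNA nested within A930004D18Rik on the other strand, had 12, 8 and 14 sense read pairs in ko clones 1, 2 and 3 and 4, 2 and 1 in p42, p43 and p56. It was low throughout and did not pass the filter, but each ko clone exceeded each wild-type culture. The depth-scaled ratio of 34 to 7 read pairs was 6.01 (exact 95% interval 2.62 to 16.1, counting error only). The mean level was 1.03 ± 0.291 CPM in ko and 0.169 ± 0.109 CPM in wild-type (SD, n = 3).

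Dnajc1, whose end lies under that of Mllt10, was measured in sense at 8.22, 7.50 and 9.17 CPM in ko clones 1, 2 and 3 and at 8.04, 9.31 and 7.95 CPM in p42, p43 and p56. The groups overlapped fully, with means of 8.30 ± 0.834 and 8.43 ± 0.761 CPM (SD, n = 3). The log2 fold change was -0.03 (SE 0.14). In counts that ignore strand, which include opposite-strand pairs lying outside Mllt10, it was 0.175.

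Commd3 was measured at 5.45, 4.41 and 3.81 CPM in ko clones 1, 2 and 3 and at 5.79, 5.53 and 6.02 CPM in p42, p43 and p56. The ko clones were all lower, although clone 1 nearly reached p43. The means were 4.56 ± 0.830 and 5.78 ± 0.246 CPM (SD, n = 3), a log2 fold change of -0.34 (SE 0.17).

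Bmi1, which starts 4.58 kb from Commd3 on the same strand, was measured at 3.97, 5.65 and 4.90 CPM in ko clones 1, 2 and 3 and at 4.35, 3.99 and 9.19 CPM in p42, p43 and p56. The groups overlapped, and p56 was far above all the other libraries. The log2 fold change of -0.26 (SE 0.30) rested on p56 and was 0.22 without it, in the other direction. Nebl, at the other end of the locus, had 2, 1 and 4 read pairs in ko and 1, 2 and 4 in wild-type, so that no difference was detectable at this depth (ratio 1.24, exact 95% interval 0.370 to 4.13, counting error only).

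**Figure D2:**
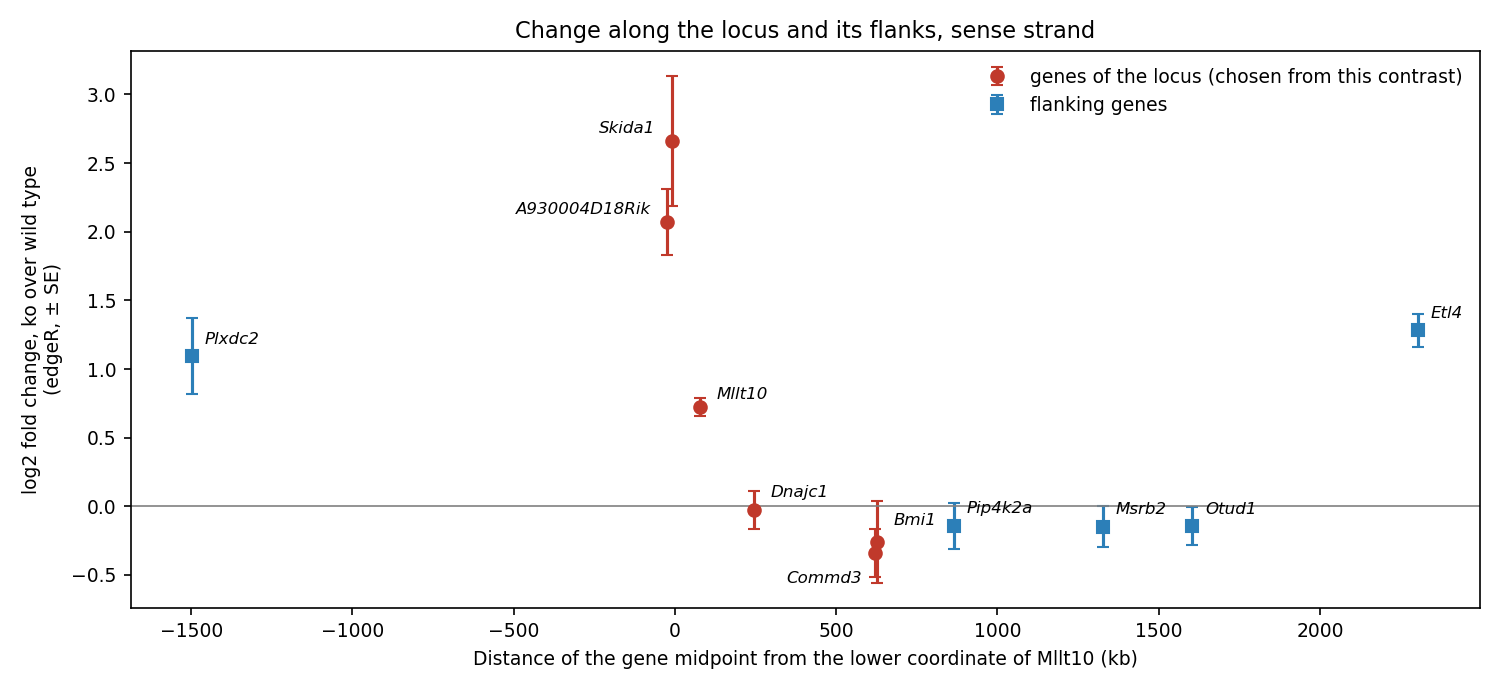
Log2 fold change of ko over wild-type from edgeR with its SE (vertical axis) against the distance of each gene's midpoint from the lower end of Mllt10 in kb, for the 6 genes of the locus that passed the filter (red circles, chosen from this contrast) and the 5 tested genes within 2 Mb on either side (blue squares). Skida1 (2.66), A930004D18Rik (2.07) and Mllt10 (0.72) stand above 0 near the origin, Dnajc1 is at -0.03, and the flanking genes Plxdc2 (1.09) and Etl4 (1.28) stand above 0 at the far ends.

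Levels were compared between genes only per kb of exon, for the 7 genes whose exon length was annotated. Each length joins all GENCODE vM21 exons of a gene, while the annotation behind the counts is not given. The order of the genes below depends on these lengths. In wild-type, Mllt10 was at 8.56 ± 0.176 CPM per kb, Commd3 at 2.48 ± 0.106, Bmi1 at 1.47 ± 0.731 and Dnajc1 at 0.724 ± 0.0653 (SD, n = 3). A930004D18Rik came next with 0.651 ± 0.271 CPM per kb, and its libraries overlapped those of Dnajc1, so that the order of these neighbours is not fixed. Skida1, at 0.0506 ± 0.0376 CPM per kb, and Nebl, at 0.0114 ± 0.00799, were the lowest. In ko, Mllt10 stayed first at 14.1 ± 0.622 CPM per kb, while A930004D18Rik stood in place 2 at 2.72 ± 0.364 CPM per kb and overlapped with Commd3 at 1.96 ± 0.356. Bmi1 (1.22 ± 0.211 CPM per kb), Dnajc1 (0.712 ± 0.0716), Skida1 (0.323 ± 0.0846) and Nebl (0.0139 ± 0.00915) followed without overlap between neighbours. By mean level the long non-coding RNA stood in place 5 in wild-type and in place 2 in ko. Neither place was fixed, since its libraries overlapped those of a neighbour in both groups.

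The opposite-strand counts were read next, because 2 pairs of genes overlap on opposite strands. Of the 8 genes, 5 had fewer than 10 opposite-strand read pairs in each library, and only Gm17762 and Dnajc1 passed the filter. Opposite to Dnajc1, 172, 174 and 181 read pairs were counted in ko clones 1, 2 and 3, and 145, 155 and 130 in p42, p43 and p56. Relative to the TMM-scaled opposite-strand total of each library, this was 1415, 1353 and 1450 CPM in ko and 943, 986 and 922 CPM in wild-type. The ko clones were all higher, with a log2 fold change of 0.56 (SE 0.13), while the sense counts of Dnajc1 overlapped between the groups. For comparison, ko lay wholly above wild-type in 6.6% and wholly below it in 6.17% of the 1378 genes tested on the opposite strand, and 0.508% of them were called, 0.363% higher and 0.145% lower in ko. Nothing is read from these shares either, since the list was drawn up from both strands. The opposite strand made up 65.9, 67.2 and 64.2% of the read pairs on Dnajc1 in ko and 56.6, 53.8 and 55.8% in wild-type.

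These read pairs were largely those of Mllt10. A pair that lies on exons of both genes is counted in sense for the gene on its strand and on the opposite strand for the other gene. When strand is ignored it is counted for neither, so that the number of such pairs can be computed from the 3 counts of a gene. It was 142, 137 and 158 in ko clones 1, 2 and 3 and 120, 140 and 116 in p42, p43 and p56. At least 75.3 to 84.5% of the opposite-strand pairs of Dnajc1 in ko, and at least 78.6 to 87.7% in wild-type, were therefore sense pairs of Mllt10. The opposite-strand counts of Dnajc1 are for this reason no measurement independent of Mllt10. At least 30, 37 and 23 opposite-strand pairs in ko and 25, 15 and 14 in wild-type lay outside the exons counted for Mllt10.

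**Figure D3:**
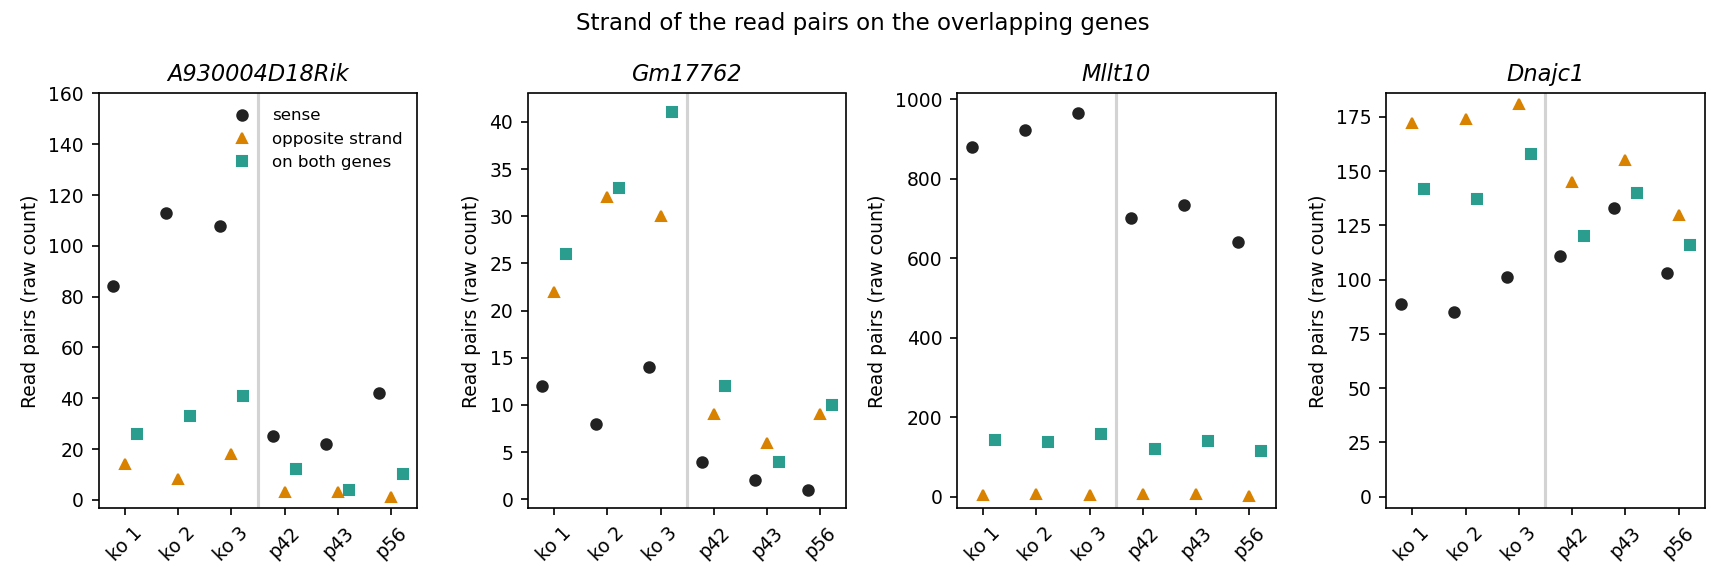
Raw counts of read pairs (vertical axes) on the 4 overlapping genes in each library, in sense (black circles), on the opposite strand (orange triangles) and on both genes of an overlapping pair (green squares), with ko left and wild-type right of the grey line. For Dnajc1 the opposite-strand counts exceed the sense counts in every library and follow the counts on both genes, while for Mllt10 the sense counts of 640 to 966 stand far above both other kinds.

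With the overlap separated, Mllt10 was higher in ko in both of its parts. In the stretch shared with Dnajc1 it was at 13.2 ± 1.12 CPM in ko and 9.15 ± 0.580 CPM in wild-type (SD, n = 3), and the groups did not overlap. The ratio of the summed counts was 1.44 (exact 95% interval 1.25 to 1.66, counting error only). In the rest of the gene, where Dnajc1 cannot contribute, the level was 70.7 ± 2.76 CPM in ko and 41.7 ± 0.994 CPM in wild-type. The groups were again apart, at a ratio of 1.69 (1.59 to 1.80). Read pairs of either strand enter these parts, and few of them were on the opposite strand of Mllt10, which had 2 to 6 such pairs per library.

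Opposite to Gm17762, 22, 32 and 30 read pairs were counted in ko clones 1, 2 and 3 and 9, 6 and 9 in p42, p43 and p56 (log2 fold change 2.06, SE 0.34). Opposite to A930004D18Rik it was 14, 8 and 18 in ko and 3, 3 and 1 in wild-type. The ko clones were all higher in both cases, as they were in sense. The pairs lying on both genes numbered 26, 33 and 41 in ko and 12, 4 and 10 in wild-type. At least 14, 25 and 27 of them in ko and 9, 2 and 9 in wild-type were sense pairs of A930004D18Rik, so that these values repeat in part the sense counts of the overlapping gene. Outside the stretch that Gm17762 covers, read pairs on A930004D18Rik were at 7.38 ± 0.629 CPM in ko and 1.73 ± 0.729 CPM in wild-type (SD, n = 3). The ratio of the summed counts was 4.33 (exact 95% interval 3.31 to 5.73, counting error only). The stretch that the 2 genes share gave 3.01 ± 0.665 and 0.640 ± 0.316 CPM, a ratio of 4.76 (3.07 to 7.64). Read pairs of either strand enter both parts, so that neither is a sense level of A930004D18Rik alone. Its opposite-strand pairs numbered 8 to 18 per library in ko and 1 to 3 in wild-type, and the shared stretch can also hold sense pairs of Gm17762.

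Within 2 Mb to either side lie 16 further gene rows, which the list did not contain and which could therefore be tested. Of these, 5 passed the filter and 1 was called. Etl4, which begins 1223.578 kb beyond Bmi1 and reaches out of the window, was measured at 47.9, 46.5 and 49.6 CPM in ko clones 1, 2 and 3 and at 23.2, 20.1 and 15.8 CPM in p42, p43 and p56. The ko clones were all higher, by 1.28 on the log2 scale (SE 0.12), which passed edgeR's quasi-likelihood test (adjusted p = 8.3e-05) here and in all 10 other settings run. Plxdc2, which encodes a membrane protein with a plexin domain and ends 581.541 kb before Nebl, was at 2.22, 2.03 and 2.18 CPM in ko and 1.16, 1.05 and 0.772 CPM in wild-type. Its groups did not overlap, but the difference of 1.09 on the log2 scale (SE 0.27) did not pass the edgeR test, with an adjusted p of 0.0605, and of 0.0525 to 0.225 in the other settings.

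The tested genes nearer to Bmi1 gave values close to 0. Pip4k2a, a lipid kinase 155.626 kb from Bmi1, differed by -0.14 on the log2 scale (SE 0.17), with an edgeR adjusted p of 0.771. Msrb2, a methionine sulfoxide reductase, differed by -0.15 (SE 0.15), and Otud1, a deubiquitinase, by -0.14 (SE 0.14), with edgeR adjusted p of 0.727 and 0.720. Spag6, the nearest of these flanking genes to Bmi1, did not pass the filter, and the 3 further rows inside the locus, Mir6419, H2afb1 and Mir7655, had 0 to 2 read pairs per library. Over the 946 tested genes of chromosome 2 the median log2 fold change was 0.005, with 10 called higher and 1 called lower, which includes the genes named here.

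The partners of these proteins were examined by lists of genes without the 8 genes of the locus. These lists were chosen with earlier results of the same data known, so that their counts and p-values are given as a description. The first list, around Mllt10, held genes of the DOT1L and elongation complexes and also Kmt2a, Men1 and Psip1, which are not subunits of these. Of its 18 genes, all of which passed the filter, edgeR called 1 higher and 0 lower in ko. An unadjusted p under 0.05 was found for 2, Ell2 and Psip1 (log2 fold change -0.21, SE 0.06). Over all tested genes, 0.859% were called higher and 0.417% lower in ko. The median log2 fold change of the list was 0.07 against -0.0001 over all tested genes. The called gene was Ell2, an elongation factor of the super elongation complex, which was at 43.2, 46.3 and 50.3 CPM in ko clones 1, 2 and 3 and at 24.9, 24.4 and 29.5 CPM in p42, p43 and p56. The ko clones were all higher, by 0.83 on the log2 scale (SE 0.10), with an edgeR adjusted p of 5.3e-04, and Ell2 was called in all 10 other settings. Dot1l itself, the methyltransferase that the Mllt10 protein binds, differed by 0.19 on the log2 scale (SE 0.10), with an edgeR adjusted p of 0.430. Those of the related cofactors Mllt1, Mllt3 and Mllt6 were 0.01, 0.06 and -0.02, and none of them passed the threshold (edgeR adjusted p = 0.984, 0.883 and 0.946). Of 13 homeobox genes associated with DOT1L and Mllt10 in leukemia, only Pbx3 passed the filter, at -0.33 on the log2 scale (SE 0.20) and an edgeR adjusted p of 0.517.

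**Figure D4:**
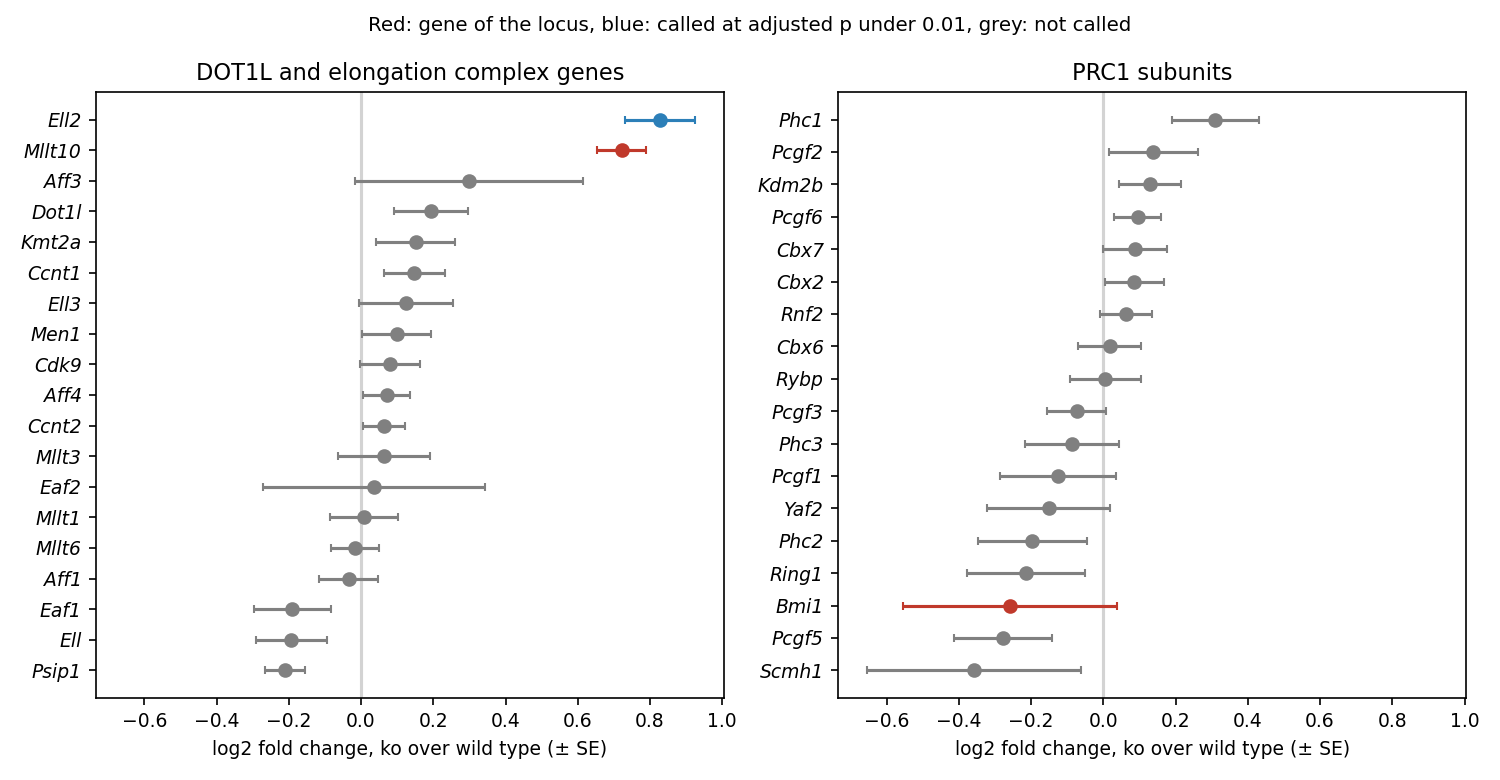
Log2 fold change of ko over wild-type with its SE (horizontal axes, edgeR) for the tested genes of 2 lists. On the left are the DOT1L and elongation complexes with Kmt2a, Men1 and Psip1, and on the right PRC1. Genes of the locus are in red, called genes in blue and genes not called in grey. Ell2 (0.83) and Mllt10 (0.72) stand above the other genes on the left, which lie between -0.21 and 0.30, and the PRC1 genes lie between -0.36 and 0.31 with Bmi1 at -0.26.

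Around Bmi1, 17 of the 19 other PRC1 genes passed the filter and 0 were called by edgeR, with 1 at an unadjusted p under 0.05 and a median log2 fold change of 0.005. The ubiquitin ligases Rnf2 and Ring1 differed by 0.06 (SE 0.07) and -0.21 (SE 0.16) on the log2 scale, and Pcgf6, a paralog of Bmi1 in PRC1, by 0.10 (SE 0.06). Of 3 genes listed for the INK4-ARF locus, a known target of Bmi1, 2 passed the filter, Cdkn2a and Mtap. Of these 0 were called, with 0 at an unadjusted p under 0.05. Mtap is not one of the INK4-ARF inhibitors, and Cdkn2b did not pass the filter. Cdkn2a was low, at 1.12 CPM in ko and 1.73 CPM in wild-type (log2 fold change -0.64, SE 0.36). Around Dnajc1, 10 of 10 endoplasmic reticulum chaperones and J proteins were tested and 0 were called, with 1 at an unadjusted p under 0.05, and Hspa5 differed by 0.03 on the log2 scale (SE 0.06). Around Commd3, 13 of 13 COMMD and associated genes were tested and 0 were called, with 0 at an unadjusted p under 0.05, and Commd1 by 0.01 on the log2 scale (SE 0.07). Of the nebulin family 2 of 3 other genes and of the SKI and DACH genes 3 of 6 others were tested, and 0 were called in both, with 0 at an unadjusted p under 0.05. DESeq2, too, called 1 gene over all these lists.

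The genes most like Mllt10 and A930004D18Rik across the 6 libraries were named by the Euclidean distance between log2 CPM values centred on their mean. For Mllt10 these were Adprh, an ADP-ribosylarginine hydrolase (distance 0.118), Echdc2 (0.132), the translation initiation factor Eif2s2 (0.132), the squalene epoxidase Sqle (0.152) and Fam109b (0.153). For A930004D18Rik they were the carbonic anhydrase Car2 (0.351), the monoacylglycerol lipase Mgll (0.490), Tsx (0.593), Mfap3l (0.616) and the kallikrein Klk1 (0.629). Skida1 was at a distance of 0.353 from A930004D18Rik, near that of Car2, whereas Mllt10, with its smaller difference, was at 1.82. Skida1 had only 2 to 6 read pairs per library in wild-type. The prior count of 2 in these log2 CPM values narrows its difference, and with it this distance is uncertain. Each of the 10 named genes lies on another chromosome than the locus except Eif2s2, which is also on chromosome 2. These distances describe 6 libraries in 2 groups and say nothing of shared control.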

How the data were processed

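RNA was ribosome-depleted total RNA, and the libraries keep strand (NEBNext Ultra Directional). Per the labels and methods, the authors aligned read pairs to mm10 with STAR and deposited, for each of the 6 libraries, raw counts per gene that ignore strand, in the opposite strand and in sense. The gene annotation used is not given in the sources used here. The 4 leading lines of unassigned pairs (36.2 to 37.7% of read pairs) were left out. Of 24054 gene rows, 22542 were matched to RefSeq names by symbol, 1372 by an older symbol and 140 not at all. Exon positions and exon lengths were taken from GENCODE vM21.

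Sense counts, and separately opposite-strand counts with their own library sizes, were fitted over all genes with edgeR 4.0.16 (R 4.3.3): low counts were removed with filterByExpr (minimum count 10, minimum total 15), TMM scaling, quasi-likelihood test, Benjamini-Hochberg adjustment, calls at an adjusted p under 0.01 and a prior count of 0.125 for fold changes. The fits were checked on simulated counts. CPM is relative to the TMM-scaled library size, and ratios of summed counts have exact 95% binomial intervals. Pairs on both of 2 overlapping genes are the sense plus opposite-strand minus strand-ignoring counts. DESeq2 1.42.0, RLE scaling, no filter, strand-ignoring counts and leaving out each library were the other settings.

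The genes of the locus and the gene lists were chosen with earlier results of these data known. Named were the 8 genes, Morc3, tested flanking genes, called and a few chosen genes of each list, and for Mllt10 and A930004D18Rik the 5 tested genes nearest in log2 CPM (prior count 2).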

Additional observations from a re-analysis of the deposited data

How the results depend on the processing

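The number of genes called on the sense strand was 156 as reported, 259 with DESeq2, 286 without a filter on low counts and 72 to 385 on leaving out single libraries, the lowest without ko clone 3 and the highest without p56. On the opposite strand it was 7 as reported, 4 with DESeq2 and 4 to 9 on leaving out single libraries, with 4 without ko clone 3. Of the locus, 2 genes and not 3 were called without ko clone 1, 2 or 3, p42 or p43, Skida1 being lost, and 3 under the other settings, a count added after seeing the data. The flanking count of 1 fell to 0 when only genes wholly inside the window were taken, a setting chosen after seeing the data, since Etl4 is not. The Skida1 log2 fold change ranged from 2.37 to 3.40 on leaving out single libraries, with 3.40 without p56. That of Dnajc1 in sense was 0.175 in counts that ignore strand, which by construction lose the pairs shared with Mllt10 and keep the others. Without p56 Bmi1 changed direction (0.22), and its range was -0.47 to 0.22. The other ranges were 1.87 to 2.45 for A930004D18Rik, 0.69 to 0.76 for Mllt10, -0.48 to -0.23 for Commd3, and on the opposite strand 0.52 to 0.59 for Dnajc1 and 1.85 to 2.19 for Gm17762. The cause of the changes with p56 was not tested. No paired analysis was possible because ko clones are numbered 1 to 3 and wild-type cultures 42, 43 and 56. Depth limits Nebl, Skida1 and Gm17762, which had under 30 sense read pairs in each library.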
